A study of Mus musculus with 2 samples.

Results

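Axon guidance genes encode secreted and membrane-bound cues, their receptors, and the cytoplasmic proteins that pass the signal to the cytoskeleton. The set described here held 72 protein-coding mouse genes, chosen by gene symbol, with earlier results of these data known: semaphorins (Sema), plexins (Plxn), neuropilins (Nrp), Eph receptors and ephrins (Efn), Slit and Robo genes, netrins (Ntn) and Unc5 receptors, and the collapsin response mediator protein (CRMP) genes Dpysl2 to Dpysl5 and Crmp1. They were 72 of 54713 rows in the deposited gene table, of which 22046 were protein-coding. Their RNA was compared in SV40 MES13, a mouse kidney line that the labels call mesangial. One subline carried a lentivirus for the long noncoding RNA AI662270 (genotype given as overexpression) and the other a control lentivirus (genotype given as WT). Both were selected in puromycin at 0.5 mg/ml, maintained at 0.25 mg/ml with 10% serum, and labelled untreated. Each group held 1 library, so no difference has a replicate check. The comparison describes these libraries rather than the conditions, and ranges in brackets are 95% counting intervals only. The sources used here do not say whether a subline is a clone or a pool of infected cells.

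Semaphorins signal through plexins, and most secreted class 3 semaphorins need a neuropilin as coreceptor. Ephrins bind Eph receptor tyrosine kinases on a touching cell, and both partners can signal. Slits bind Robo receptors, and netrins bind Dcc, neogenin and Unc5 receptors. Outside the nervous system the same families act in vessel patterning, epithelial contacts and kidney development.

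The AI662270 library held 15062482 counts and the control library 15727023. AI662270 itself (ENSMUSG00000087107, chromosome 11 from 83223576 to 83226604, mm10) reached 15.5 CPM (13.6 to 17.5) on 241 counts in the AI662270 library, with 0 counts in the control library. CPM is the count scaled to library size. Against a floor of 3 counts for the control library, and with the 241 counts taken as they stand, this is at least 78.4-fold higher. The labels' protocol names Sox9 as the gene whose stable expression was checked, and Sox9 had 97 counts in the AI662270 library against 234 in the control library, 2.47-fold lower (1.94 to 3.17). Of 11 mesangial and pericyte markers 4 were measured: Pdgfrb, Acta2, Gata3 and Des. Pdgfrb led them with 338 counts in the AI662270 library and 185 in the control library, while Itga8, Ren1 and Thy1 had 0 in both. Of 7 tubule epithelial markers 5 were measured, led by the cadherin Cdh16 with 4409 counts in the AI662270 library and 4945 in the control library, while Slc34a1 and Umod had 0 in both.

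Of the 72 axon guidance genes, 49 were measured, which required a mean of 1 CPM or more. With the AI662270 lentivirus, 10 of the 49 were higher and 6 were lower by a rule of size. The rule asks for a log2 ratio of 1 or more either way, with 0.5 CPM added to each value, and a counting interval of the ratio that leaves out 1. These are 20.4% and 12.2% of the measured genes of the set, against 5.59% higher and 5.72% lower among all 13268 measured genes, and 5.55% higher and 5.22% lower among the 11858 measured protein-coding genes. By role, 5 of 28 measured ligands were higher and 3 lower, and 4 of 18 measured receptors were higher and 3 lower. The calls went both ways and the centre of the set stayed near 0. Its median log2 ratio was 0.02, with quartiles at -0.34 and 0.47, and the median over all measured genes was -0.02. The log2 ratio was above 0 for 25 genes and below 0 for 24, and 27 lay within 0.5 of 0.

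The calls were also counted by level. At a mean of 50 CPM or more, 0 of 12 genes of the set were higher and 2 lower, against 1.30% and 5.20% of the 5152 genes at that level. Between 10 and 50 CPM, 5 of 21 were higher and 3 lower, against 4.27% and 4.87% of 4619 genes. Between 1 and 10 CPM, 5 of 16 were higher and 1 lower, against 13.7% and 7.61% of 3497 genes. The higher genes thus all lay under a mean of 50 CPM, and the most abundant called genes, Epha2 and Sema3e, were lower.

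**Figure D1:**
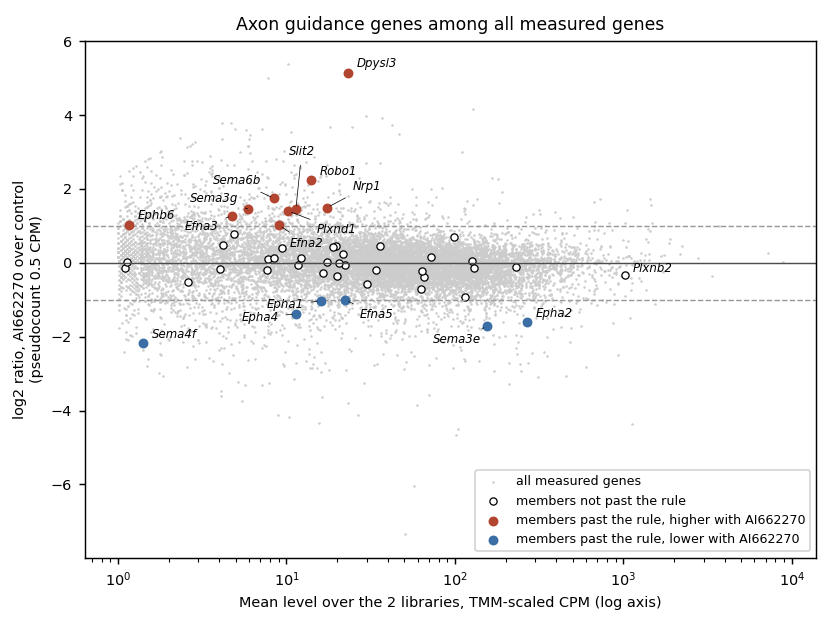
Log2 ratio of the AI662270 library over the control library (y axis, 0.5 CPM added to each value) against the mean level over the 2 libraries in CPM (x axis, log scale). Grey points are the 13268 measured genes, open circles the 33 measured axon guidance genes not past the rule, red points the 10 higher and blue points the 6 lower genes, and dashed lines mark a log2 ratio of 1 either way. Dpysl3 stands at 5.15 and the abundant Plxnb2 near 0, at -0.34.

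Promoter windows are shown for 4 called genes on which the results below turn: the ligand Sema3e (lower) and its receptor Plxnd1 (higher), the ligand Slit2 (higher) and the receptor Epha2 (lower). Each window runs from 250 bases before to 50 bases after the RefSeq start and comes from RefSeq on GRCm38.p6, the build also called mm10. Each is written 5′ to 3′ on the gene's own strand. Capitals mark the GC box GGGCGG, the HIF core ACGTG and the TATA box TATAAA, each on either strand, and the capital CACGTG in Sema3e is 2 overlapping ACGTG matches, 1 on each strand.
Sema3e, chr5:14025026-14025325, plus strand: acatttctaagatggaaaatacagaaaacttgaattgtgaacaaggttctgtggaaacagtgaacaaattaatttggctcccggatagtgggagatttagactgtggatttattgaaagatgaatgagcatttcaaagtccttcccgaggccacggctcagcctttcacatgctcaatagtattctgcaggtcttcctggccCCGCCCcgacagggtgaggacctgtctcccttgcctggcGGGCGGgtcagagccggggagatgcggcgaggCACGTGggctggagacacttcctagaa
Plxnd1, chr6:115994956-115995255, minus strand: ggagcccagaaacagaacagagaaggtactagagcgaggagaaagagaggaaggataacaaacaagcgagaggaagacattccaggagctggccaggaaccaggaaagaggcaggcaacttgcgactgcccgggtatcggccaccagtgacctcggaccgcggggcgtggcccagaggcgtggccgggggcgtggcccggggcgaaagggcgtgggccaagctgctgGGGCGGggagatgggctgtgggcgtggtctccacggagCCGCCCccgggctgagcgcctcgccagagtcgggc
Slit2, chr5:47982905-47983204, plus strand: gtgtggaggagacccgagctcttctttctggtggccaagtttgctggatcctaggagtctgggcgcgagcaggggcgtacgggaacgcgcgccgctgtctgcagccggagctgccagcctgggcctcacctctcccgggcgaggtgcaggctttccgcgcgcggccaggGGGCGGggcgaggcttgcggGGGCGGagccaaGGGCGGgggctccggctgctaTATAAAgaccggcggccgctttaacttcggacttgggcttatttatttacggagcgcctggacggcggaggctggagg
Epha2, chr4:141300971-141301270, plus strand: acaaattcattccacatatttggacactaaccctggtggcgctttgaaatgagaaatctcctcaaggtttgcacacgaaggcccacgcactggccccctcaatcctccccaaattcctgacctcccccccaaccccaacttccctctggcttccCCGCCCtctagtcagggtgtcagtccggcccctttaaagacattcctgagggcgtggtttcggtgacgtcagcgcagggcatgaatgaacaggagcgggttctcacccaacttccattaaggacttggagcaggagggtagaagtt

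The Sema3e window held 2 GC boxes, the Plxnd1 window 2, the Slit2 window 3 and a TATAAA, and the Epha2 window 1. Of the 72 genes, 60 had a window in the table, with a median GC content of 64.8% against 52.7% over all 32851 windows. For these genes 1 window each was taken, the nearest to the deposited gene start. The nearest window was still far off for Robo1 (354843 bases), Sema3a (271370 bases) and Sema4d. The 32851 windows can include several of the same gene and were not restricted to protein-coding genes, so the groups are not fully alike. GGGCGG was present in 44 of the 60, or 73.3%, against 35.7% of all windows. Called genes of both directions carried it, 8 of 9 higher and 5 of 6 lower, as did 21 of 26 measured genes not called. TATAAA occurred in 2 of the 60, or 3.33%, against 13.6% of all windows, and the hypoxia-inducible factor core ACGTG in 10, or 16.7%, against 19.6%. CCAAT occurred in 17, or 28.3%, against 37.4%. The ETS core CCGGAA occurred in 6, or 10%, against 14.9%, and the AP-1 element TGACTCA in 1, or 1.67%, against 5.20%. Motifs were searched on both strands, no motif is contained in another, and a match describes letters and not a bound site.

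Among the semaphorins, 17 of 20 genes were measured, 2 of them higher and 2 lower. Sema3e (ENSMUSG00000063531, chromosome 5 from 14025276 to 14256689), a secreted class 3 semaphorin that binds plexin-D1 directly, had 1123 counts (72.1 CPM) in the AI662270 library and 3622 counts (238 CPM) in the control library, 3.31-fold lower (3.09 to 3.54). It was the only measured class 3 semaphorin that was lower. Sema3g (ENSMUSG00000021904, chromosome 14 from 31217860 to 31230352), a class 3 semaphorin known from endothelium, had 138 counts (8.86 CPM) in the AI662270 library and 44 counts (2.89 CPM) in the control library, 3.06-fold higher (2.17 to 4.40). Sema3c, a ligand in heart and vessel development and the most abundant semaphorin per length, had 3450 counts (221 CPM) in the AI662270 library and 3668 counts (241 CPM) in the control library, a ratio of 0.918 (0.876 to 0.962). Sema3f, a ligand of neuropilin-2, had 1174 counts in the AI662270 library and 1033 in the control library. Sema3a, the classic collapsin that binds neuropilin-1, had 339 counts in the AI662270 library and 346 in the control library, and Sema3b had 180 counts in the AI662270 library and 182 in the control library. The 4 class 3 genes that were not called thus had log2 ratios between -0.12 and 0.15. In levels per kilobase of gene length, Sema3e made up 13.1% of the class 3 sum in the AI662270 library, against 33.2% in the control library. Sema3c made up 52.3% in the AI662270 library, against 43.7% in the control library. The class 3 sum was 59.3 CPM per kilobase in the AI662270 library and 77.4 in the control library.

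Of the membrane-bound semaphorins, 1 gene of class 6 and 1 of class 4 were called. Sema6b (ENSMUSG00000001227, chromosome 17 from 56123085 to 56140343), a transmembrane semaphorin that signals through plexin-A receptors, had 207 counts (13.3 CPM) in the AI662270 library and 55 counts (3.62 CPM) in the control library, 3.67-fold higher (2.72 to 5.04). It was 60.6% of the class 6 sum per kilobase in the AI662270 library and 29.4% in the control library. Its class partners were not called: Sema6a had 111 counts in the AI662270 library and 124 in the control library, and Sema6c had 126 counts in the AI662270 library and 114 in the control library. Sema4f (ENSMUSG00000000627, chromosome 6 from 82911885 to 82939769), a transmembrane semaphorin, lay at the detection limit in the AI662270 library. It had 3 counts (0.193 CPM) in the AI662270 library and 40 counts (2.63 CPM) in the control library, 13.7-fold lower (4.35 to 69.0), and it was not past the rule on the FPKM columns or with a filter of 5 CPM. The other class 4 genes, Sema4a, Sema4b, Sema4c, Sema4d and Sema4g, had 177 to 1134 counts and log2 ratios between -0.39 and 0.46. The most abundant of them per length was Sema4d, a ligand of plexin-B1, with 885 counts in the AI662270 library and 1134 in the control library. Sema5a had 59 counts in the AI662270 library and 65 in the control library, and the membrane-anchored Sema7a had 32 counts in the AI662270 library and 48 in the control library, neither past the rule.

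The plexins were dominated by 1 gene that was not called. Plxnb2, encoding plexin-B2, a receptor of class 4 semaphorins, had 14059 counts (902 CPM) in the AI662270 library and 17360 counts (1142 CPM) in the control library, a ratio of 0.79 (0.773 to 0.808). It was the most abundant gene of the set and lay at the 98.0th percentile of level per length among all measured genes. It was 82.3% of the plexin sum per kilobase in the AI662270 library and 85.5% in the control library. Plxna1, a receptor partner of the neuropilins, had 2011 counts (129 CPM) in the AI662270 library and 1899 counts (125 CPM) in the control library, a ratio of 1.03 (0.97 to 1.10). Plxna2, Plxna3 and Plxnb1 had log2 ratios between -0.35 and 0.14. Plxnd1 (ENSMUSG00000030123, chromosome 6 from 115954811 to 115995005), the receptor of Sema3e, was the 1 plexin of 6 measured that was called. It had 235 counts (15.1 CPM) in the AI662270 library and 82 counts (5.39 CPM) in the control library, 2.80-fold higher (2.17 to 3.64). Ligand and receptor thus stood in opposite directions. Per kilobase, the Sema3e level was 3.76 times the Plxnd1 level in the AI662270 library and 34.7 times in the control library.

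Of the 2 neuropilins, Nrp1 was called. Nrp1 (ENSMUSG00000025810, chromosome 8 from 128358604 to 128503363), coreceptor of class 3 semaphorins and of vascular endothelial growth factor, had 404 counts (25.9 CPM) in the AI662270 library and 135 counts (8.88 CPM) in the control library, 2.92-fold higher (2.40 to 3.58). Nrp2, the coreceptor of Sema3f and of lymphatic growth factors, had 1917 counts (123 CPM) in the AI662270 library and 2068 counts (136 CPM) in the control library, a ratio of 0.905 (0.85 to 0.963). Nrp2 was the more abundant neuropilin per kilobase in both, 3.92 times Nrp1 in the AI662270 library and 12.7 times in the control library.

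**Figure D2:**
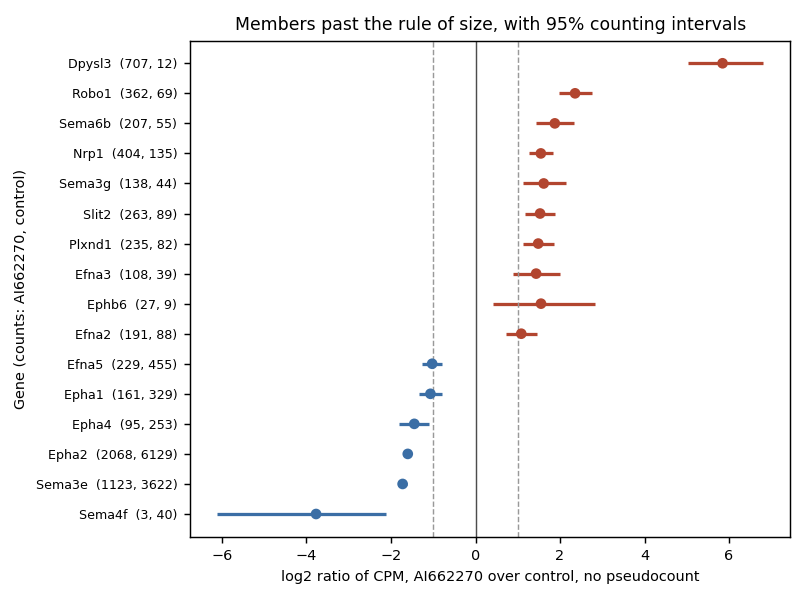
Ratio of CPM in the AI662270 library over the control library for the 16 axon guidance genes past the rule of size, on a log2 axis without a pseudocount, with bars for the 95% counting interval and the counts of the AI662270 and control libraries beside each name. Red points are the 10 higher and blue points the 6 lower genes. Dpysl3 lies farthest to the right, Sema4f and Ephb6 have wide bars on few counts, and the points of Efna2, Efna5 and Epha1 lie at the dashed lines of a 2-fold difference.

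Of 4 measured EphA receptors 3 were lower and 0 higher, and of 4 measured EphB receptors 0 were lower and 1 higher. Among all measured genes 5.59% were higher and 5.72% lower, and 4 genes per subclass are too few for a share. The calls of Epha1 and Ephb6 were lost under some settings. Epha2 (ENSMUSG00000006445, chromosome 4 from 141301240 to 141329384), a receptor tyrosine kinase prominent in epithelial cells, had 2068 counts (133 CPM) in the AI662270 library and 6129 counts (403 CPM) in the control library, 3.04-fold lower (2.89 to 3.19). Epha4 (ENSMUSG00000026235, chromosome 1 from 77367185 to 77515088), which binds ephrins of both subclasses, had 95 counts (6.10 CPM) in the AI662270 library and 253 counts (16.6 CPM) in the control library, 2.73-fold lower (2.15 to 3.49). Epha1 (ENSMUSG00000029859, chromosome 6 from 42358487 to 42373268), an epithelial Eph receptor, had 161 counts (10.3 CPM) in the AI662270 library and 329 counts (21.6 CPM) in the control library, 2.09-fold lower (1.73 to 2.54), and it was short of the rule under each of 3 other scalings. Epha7 was low in both, with 16 counts in the AI662270 library and 18 in the control library. The EphA sum was 31.9 CPM per kilobase in the AI662270 library and 93.9 in the control library, and Epha2 was 89.1% of it in the AI662270 library and 91.8% in the control library.

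The leading EphB receptor ran the other way without reaching the rule. Ephb4, a receptor of ephrin-B2 known from veins, had 1892 counts (121 CPM) in the AI662270 library and 1141 counts (75.049 CPM) in the control library, a ratio of 1.62 (1.5 to 1.74). Ephb6 (ENSMUSG00000029869, chromosome 6 from 41605482 to 41620509), a receptor without kinase activity, had 27 counts (1.73 CPM) in the AI662270 library and 9 counts (0.592 CPM) in the control library, 2.93-fold higher (1.34 to 7.07), and it was not past the rule with a pseudocount of 2 CPM, a filter of 5 CPM or the FPKM columns. Ephb3 had 319 counts in the AI662270 library and 312 in the control library, and Ephb2 had 18 counts in the AI662270 library and 17 in the control library. The EphB sum was 29.8 CPM per kilobase in the AI662270 library and 19.5 in the control library. Per kilobase, the Epha2 level was 1.09 times the Ephb4 level in the AI662270 library and 5.33 times in the control library. Of the 5 measured tubule epithelial markers, Cdh1 and Aqp1 were lower, while Epcam, Cdh16 and Lrp2 were not called, with log2 ratios of -0.82, -0.20 and 0.06. The sum over the 7 listed was 505.0 CPM in the AI662270 library and 714.0 in the control library. The part of these markers in the Eph values was not tested, and in bulk RNA fewer cells of a type and less RNA per cell cannot be told apart.

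All 8 ephrins were measured, 2 of them higher and 1 lower, all of subclass A. Efna2 (ENSMUSG00000003070, chromosome 10 from 80179482 to 80190010), a ligand linked to the membrane by a lipid anchor as all ephrin-As are, had 191 counts (12.3 CPM) in the AI662270 library and 88 counts (5.79 CPM) in the control library, 2.12-fold higher (1.64 to 2.76). Efna3 (ENSMUSG00000028039, chromosome 3 from 89313899 to 89322965), another ephrin-A, had 108 counts (6.93 CPM) in the AI662270 library and 39 counts (2.57 CPM) in the control library, 2.70-fold higher (1.86 to 4.0). Efna5 (ENSMUSG00000048915, chromosome 17 from 62604184 to 62881317), which can also bind Ephb2, had 229 counts (14.7 CPM) in the AI662270 library and 455 counts (29.9 CPM) in the control library, 2.04-fold lower (1.73 to 2.40). Efna5 was short of the rule under each of 3 other scalings, and Efna2 with a pseudocount of 2 CPM or on the FPKM columns. Efna3 was short of it with that pseudocount, and its mean lies under a filter of 5 CPM. Efna1, a ligand of Epha2 and the leading ephrin-A per length, had 337 counts (21.6 CPM) in the AI662270 library and 242 counts (15.9 CPM) in the control library, a ratio of 1.36 (1.15 to 1.61). Efna4 had 167 counts in the AI662270 library and 122 in the control library, a log2 ratio of 0.40. Efna5 made up 11.8% of the ephrin-A sum per kilobase in the AI662270 library and 29.8% in the control library. Set against its ligand, the Epha2 level per kilobase was 2.40 times the Efna1 level in the AI662270 library and 9.92 times in the control library. No ephrin-B was called. Efnb2, the ligand of Ephb4, had 745 counts (47.8 CPM) in the AI662270 library and 1188 counts (78.1 CPM) in the control library, a ratio of 0.612 (0.558 to 0.671). Efnb1 had 98 counts in the AI662270 library and 52 in the control library, and Efnb3 had 77 counts in the AI662270 library and 52 in the control library.

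**Figure D3:**
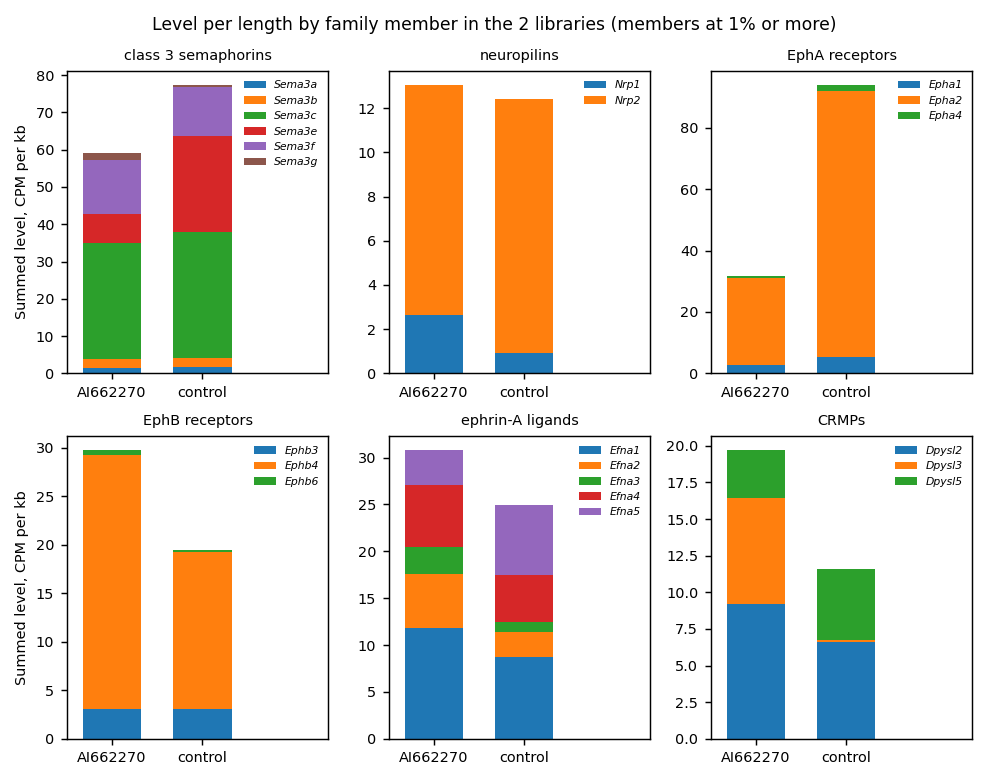
Summed level in CPM per kilobase of 6 families, with 1 stacked bar for the AI662270 library and 1 for the control library in each panel and a colour for each gene at 1% or more of its family. The EphA bar is 31.9 in the AI662270 library and 93.9 in the control library. Sema3e is 13.1% of the class 3 bar in the AI662270 library and 33.2% in the control library, and Dpysl3 is 36.8% of the CRMP bar in the AI662270 library and 1.08% in the control library.

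Slit2 and Robo1, a ligand and its receptor, were both higher. Slit2 (ENSMUSG00000031558, chromosome 5 from 47983138 to 48307733), a secreted repellent, had 263 counts (16.9 CPM) in the AI662270 library and 89 counts (5.85 CPM) in the control library, 2.88-fold higher (2.26 to 3.71), and it was not past the rule on the FPKM columns. Robo1 (ENSMUSG00000022883, chromosome 16 from 72308306 to 73046095), an immunoglobulin-family receptor of Slits, had 362 counts (23.2 CPM) in the AI662270 library and 69 counts (4.54 CPM) in the control library, 5.12-fold higher (3.95 to 6.72). Each was the only measured gene of its family. Slit1 had 11 counts in the AI662270 library and 17 in the control library, Robo2 had 3 counts in the AI662270 library and 0 in the control library, Robo4 had 2 counts in the AI662270 library and 1 in the control library, and Slit3 had 0 in both.

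No netrin and no Unc5 receptor was called. Ntn1, the founding guidance netrin, had 366 counts (23.5 CPM) in the AI662270 library and 304 counts (19.995 CPM) in the control library, a ratio of 1.17 (1.01 to 1.37). Ntn4, a netrin of basement membranes, had 233 counts (15.0 CPM) in the AI662270 library and 275 counts (18.1 CPM) in the control library, a ratio of 0.827 (0.691 to 0.988). Unc5b, a netrin receptor of vessels, had 1240 counts (79.6 CPM) in the AI662270 library and 2297 counts (151 CPM) in the control library, a ratio of 0.527 (0.491 to 0.565). Its log2 ratio of -0.92 was the nearest to the rule among genes of the set that were measured and not called. The netrin receptor gene Dcc, outside the set, had 0 counts in both libraries, and its relative Neo1 had 1767 counts in the AI662270 library and 1610 in the control library.

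Dpysl3 had the largest ratio of the set. This CRMP (ENSMUSG00000024501, whose deposited coordinates differ from those in GENCODE M21), a cytosolic protein of growth cones and of migrating cells, had 707 counts (45.4 CPM) in the AI662270 library and 12 counts (0.789 CPM) in the control library, 57.5-fold higher (32.7 to 112). The other measured CRMP genes were not called. Dpysl2, which acts downstream of Sema3a, had 646 counts (41.5 CPM) in the AI662270 library and 455 counts (29.9 CPM) in the control library, a ratio of 1.39 (1.23 to 1.57). Dpysl5 had 376 counts (24.1 CPM) in the AI662270 library and 546 counts (35.9 CPM) in the control library, a ratio of 0.672 (0.588 to 0.768). Dpysl3 was 36.8% of the CRMP sum per kilobase in the AI662270 library and 1.08% in the control library. Per kilobase, the Dpysl2 level was 1.27 times the Dpysl3 level in the AI662270 library and 52.6 times in the control library. Crmp1 had 0 counts in the AI662270 library and 1 in the control library, and Dpysl4 had 0 in both.

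Markers of cells in which these genes are best known were mostly absent. Of 12 neuronal markers 1 was measured, the beta-tubulin gene Tubb3, with 1076 counts in the AI662270 library and 340 in the control library, 3.09-fold higher. The others had at most 10 counts in a library, and Stmn2, Nefl, Elavl3, Elavl4, Snap25 and Dcx had 0 in both. The neuronal sum was 70.0 CPM in the AI662270 library and 23.3 in the control library. None of 8 endothelial markers was measured, with 31 counts in all in the AI662270 library and 15 in the control library, and Tek, Tie1, Emcn and Cldn5 had 0 in both. The mesangial and pericyte sum was 39.2 CPM in the AI662270 library and 20.2 in the control library. Of that list Acta2, the smooth muscle actin, was higher, with 171 counts in the AI662270 library and 12 in the control library, and Gata3 was lower, with 25 in the AI662270 library and 76 in the control library. The part of these lists in the values of the axon guidance genes was not tested.

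**Figure D4:**
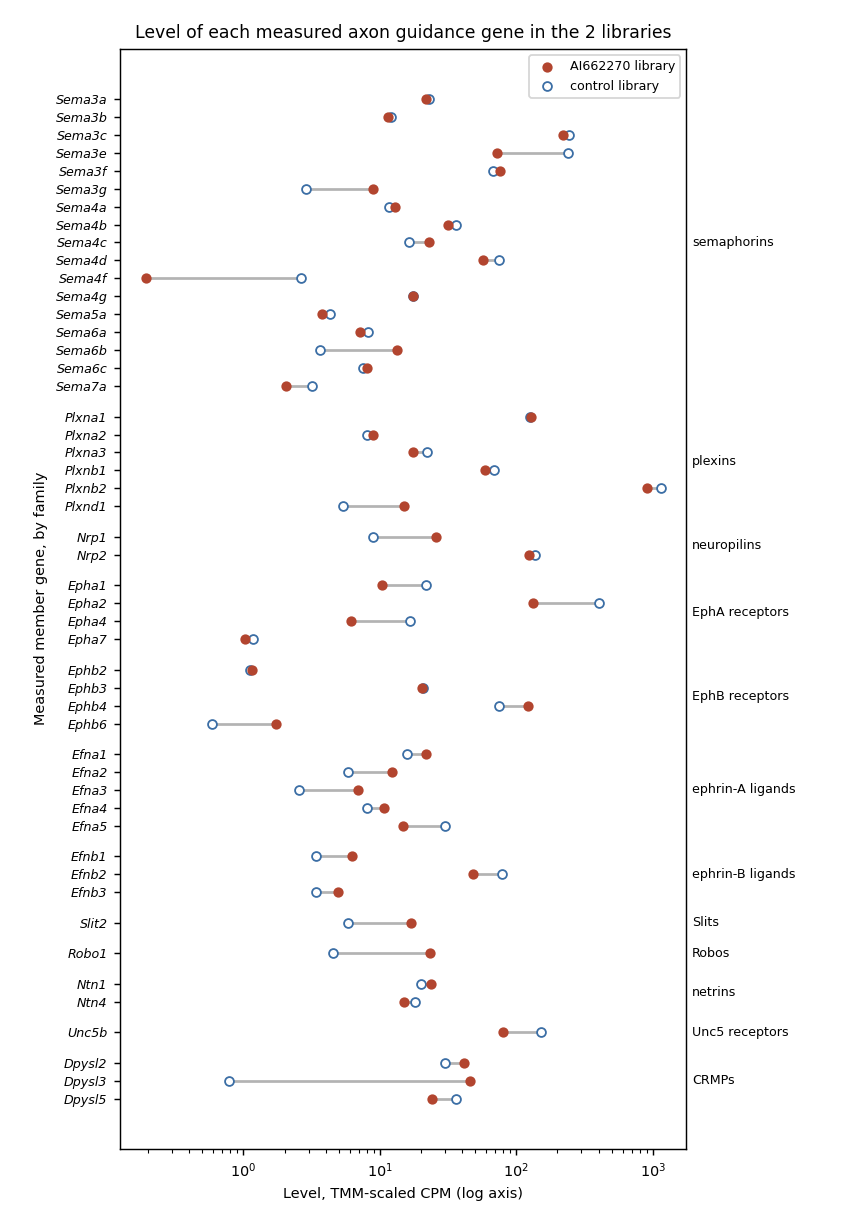
Level of each of the 49 measured axon guidance genes in CPM (log axis), with a filled red point for the AI662270 library and an open blue point for the control library, joined by a line, and genes in rows by family. Plxnb2 stands highest, Dpysl3 has the longest line, and the points of Plxna1, Ephb3, Sema4g and Sema3a nearly coincide.

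Of the 23 genes that were not measured, 12 had 0 counts in both libraries, which allows up to 0.193 CPM in the AI662270 library and 0.197 CPM in the control library. They were Epha3, Epha5, Epha6, Epha8, Epha10, Ephb1, Plxna4, Sema6d, Slit3, Unc5d, Ntn5 and Dpysl4. The other 11 were Robo2, Robo3, Robo4, Slit1, Sema3d, Sema5b, Plxnb3, Plxnc1, Unc5a, Unc5c and Crmp1, with at most 20 counts in a library. Apart from Robo3, no difference among these 11 was detectable at this depth.

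The wider pathway was read from a list of 81 other genes, of which 72 were measured, 1 higher and 4 lower, with a median log2 ratio of -0.11. These are 1.39% and 5.56% of the measured list, against 5.59% higher and 5.72% lower among all measured genes, so the lower calls are near the background and the higher calls below it. The lower ones began with a pair of neural adhesion molecules. Cntn2, a contactin of axons, had 321 counts in the AI662270 library and 992 in the control library, 3.17-fold lower (2.79 to 3.60). L1cam, a partner of neuropilin-1 in the response of neurons to Sema3a, had 758 counts in the AI662270 library and 2011 in the control library, 2.72-fold lower (2.50 to 2.96). The remaining calls were of intracellular signalling genes. Srgap1, a GTPase-activating protein that binds Robo1, had 112 counts in the AI662270 library and 269 in the control library, 2.46-fold lower (1.97 to 3.10), in the opposite direction to Robo1. Rnd1, which binds plexins inside the cell, had 912 counts in the AI662270 library and 1888 in the control library, 2.12-fold lower (1.96 to 2.30). Kalrn, an exchange factor for Rac, had 138 counts in the AI662270 library and 39 in the control library, 3.45-fold higher (2.40 to 5.06). On the FPKM columns Srgap1 and Kalrn were not past the rule, and Rnd1 was not with scaling by total counts. None of the 20 adaptors and kinases was called, with a median log2 ratio of -0.38, and none of the 14 measured genes of cytoskeletal effectors and sheddases was called, with a median of 0.08.

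Of 20 measured nearest neighbours of the 16 called genes, 0 had the same call and 19 had none, which is near the background of 5.59% higher and 5.72% lower among all measured genes. These neighbours were the nearest protein-coding genes on each side, at distances from 0.914 kb to 3591 kb, so many were not adjacent. Pax3, 586 kb from Epha4, was 2.49-fold higher (1.46 to 4.41), with 51 counts in the AI662270 library and 20 in the control library. Efna1, Efna3 and Efna4 lie together on chromosome 3, and Efna3 alone was called. Epha1 overlaps Zyx on the opposite strand, which had 2318 counts in the AI662270 library and 4285 in the control library. Efna3 overlaps the antisense gene Gm15998, which had 48 counts in the AI662270 library and 37 in the control library. Whether counting used strand is not stated, so the values of Epha1 and Efna3 are uncertain.

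The authors' deposited table gives an adjusted p-value for 57 of the 72 genes and lists 11 of them under 0.05, against 4.34% of the 20667 rows with one. All 11 were among the 16 genes past the rule. Both lists come from the same libraries, so this overlap is no independent check. The 5 called genes that it does not list at that level were Efna2, Efna3, Ephb6, Epha1 and Efna5.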

How the data were processed

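RNA of 2 sublines was sequenced, 1 library per group. CASAVA 1.4, TopHat2 and mm10 are named, per the submitters' processing notes. These sources give neither the counting program nor its annotation release and use of strand. The deposited counts are whole numbers, named counts per the file headers, and were taken as unscaled reads. The DESeq2 size factors of these counts were 1 in both libraries, although the totals differ. That alternative scaling thus set both libraries to the same size, 15391166. Whether the counts had been scaled before deposit was not tested, and the counting intervals assume that they had not. FPKM values in the deposited table equal counts divided by gene length and by 15391166 in both libraries. The p-value column of the deposited table is the authors' own, compares 1 library with 1 library, and is quoted only as genes listed.

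Library sizes were adjusted by TMM in edgeR 4.0.16 (R 4.3.3), with factors 1.03 for AI662270 and 0.967 for control, and values were analysed in Python 3.11.15 with scipy 1.17.1. Intervals of a ratio are exact Clopper-Pearson intervals, and folds use CPM with nothing added. Intervals and floors of 3 counts reflect counting error alone, because each group held 1 library. The reads had no molecular identifiers, so copies of the same molecule count separately and the intervals may be too narrow. With 1 library per group no p-value was computed. The calling step was tested on simulated counts with counting error only, so that test did not cover spread between libraries of a condition.

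The genes, lists and motifs were chosen with earlier results of these data known. Named in full were genes past the rule and the 2 most abundant measured genes per length of each family. Pathway genes, and measured neighbours of called genes, were named where called, AI662270 and Sox9 whatever their values. Genes just short of the rule, and other genes of a family, were added after their values were seen. Positions are as deposited. All 72 genes matched GENCODE M21, 71 with the same coordinates, the exception being Dpysl3. Alternatives were 3 other scalings (total counts, DESeq2 1.42.0 size factors, upper quartiles), 0.1 or 2 CPM as pseudocount, a filter of 5 CPM or none, the FPKM columns, and thresholds of 1.5-fold and 3-fold.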

Additional observations from a re-analysis of the deposited data

How the results depend on the processing

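Over 8 settings that kept the 2-fold threshold, the genes called higher numbered 7 to 11 and those called lower 3 to 6, against 10 and 6, and the median log2 ratio of the set lay between 0.01 and 0.10. Over these settings 3.01% to 6.56% of all genes that passed the filter were higher and 3.93% to 6.46% lower. Under each of the 3 other scalings 4 genes of the set were lower, against 4.64% to 5.33% of all measured genes. Of the called genes, 6 higher (Dpysl3, Nrp1, Plxnd1, Robo1, Sema3g and Sema6b) and 3 lower (Epha2, Epha4 and Sema3e) passed in all 8. Epha1 and Efna5 were lost under all 3 other scalings, a pseudocount of 2 CPM and FPKM. Slit2 was lost on FPKM, Efna2 and Ephb6 with a pseudocount of 2 CPM and on FPKM, Efna3 and Ephb6 with a pseudocount of 2 CPM and a filter of 5 CPM, and Sema4f with that filter and on FPKM. No called gene changed sign under these settings, but they could hardly reverse a log2 ratio of 1 or more, so this is no check of direction. On FPKM 3 genes of the set were lower and 0 of the pathway list higher, against 4.19% lower and 3.66% higher among all measured genes. Without a filter 2 of the pathway list were higher, against 4.55% of all genes with a count. At 1.5-fold 12 of the 49 measured genes of the set were higher and 8 lower. At that threshold 7 of the pathway list were higher and 14 lower, against 12.9% and 14.3% of all measured genes. At 3-fold 3 genes of the set were higher and 3 lower, against 1.86% and 1.97%, with 1 of the pathway list lower. The FPKM scale adds 0.5 to values divided by length, and stricter thresholds call fewer genes. The median of all genes was 0.08 with scaling by total counts, against -0.02. No paired analysis was possible because each group held 1 library, and no library could be left out. Depth limits the genes under about 1 CPM, where a few counts decide the ratio.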

Other observations

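Robo3 and Nrcam lay below the measuring limit and had counting intervals that left out 1. Robo3, a divergent Robo of commissural axons, had 20 counts in the AI662270 library and 3 in the control library, a ratio of 6.51 (1.93 to 34.2), and was called when no filter was used. Nrcam, an adhesion molecule of the pathway list, had 22 counts in the AI662270 library and 1 in the control library, a ratio of 21.5 (3.47 to 886).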
